A study of Mus musculus with 7 samples.

Results

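Renin-angiotensin system genes were described in abdominal aorta of mice exposed to angiotensin II (Ang II). The 9 genes, taken by symbol from the gene count and FPKM tables, were Agtr1a, Agtr1b, Agtr2, Mas1, Agt, Ace, Enpep, Agtrap and Atp6ap2, and all 9 were found among the 21878 genes of each table. The mice were male, of the C57BL/6 strain and aged 8 weeks, and the exposure to Ang II lasted up to 28 days. The genotype was given as ApoE-/- for 3 libraries (ApoE 1 to ApoE 3) and as ApoE-/-Nur77-/-, the double knockout, for 4 libraries (DKO 1 to DKO 4). By label, all 7 libraries therefore shared the ApoE-/- background and the exposure to Ang II, and there was no library without Ang II. ApoE is the apolipoprotein that clears remnant lipoproteins from plasma, and Nur77, an orphan nuclear receptor, is the product of Nr4a1. As labelled, the comparison addresses what loss of Nur77 alters in the aorta under Ang II, here in the genes that make, convert, bind and degrade the peptide itself.

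In the renin-angiotensin system, renin cuts angiotensinogen (Agt) to angiotensin I, and angiotensin-converting enzyme (Ace), held on the surface of endothelial cells, cuts that to Ang II. In the vessel wall Ang II acts mainly through the AT1 receptor, which contracts smooth muscle, while the AT2 receptor (Agtr2) and the Mas receptor (Mas1) are known for opposing effects. Mice carry a pair of AT1 receptor genes, Agtr1a and Agtr1b, where humans have a single gene. Aminopeptidase A (Enpep) degrades Ang II, Agtrap binds the tail of the AT1 receptor and promotes its internalisation, and Atp6ap2 is the prorenin receptor and also an accessory protein of the vacuolar proton pump. Ang II infusion into hyperlipidaemic mice is a standard way to induce abdominal aortic aneurysm.

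The AT1 receptor genes are shown first, because every statement on them depends on reads being assigned to the right gene. Agtr1a lies on chromosome 13 (30336356 to 30382867, GRCm38.p6) and Agtr1b on chromosome 3 (20314473 to 20367177). Their coding sequences, taken as the longest open reading frame of the GENCODE M21 transcripts, are each 1080 bases long and identical at 981 positions (90.8%). Agtr1a and Agtr2 are identical at 46.3% of aligned positions. The 99 differences are spread so that the longest identical run is 66 bases, and 3.20% of 50-base windows are identical in both genes. The coding stretch with the most differences, bases 922 to 1071 counted from the start codon, has 25 of them. It is given 5′ to 3′ with the bases that differ between the genes in capitals, followed by the longest run that both genes share.
Agtr1a: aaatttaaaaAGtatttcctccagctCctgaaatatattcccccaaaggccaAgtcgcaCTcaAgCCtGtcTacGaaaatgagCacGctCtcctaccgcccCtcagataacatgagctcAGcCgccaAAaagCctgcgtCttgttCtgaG
Agtr1b: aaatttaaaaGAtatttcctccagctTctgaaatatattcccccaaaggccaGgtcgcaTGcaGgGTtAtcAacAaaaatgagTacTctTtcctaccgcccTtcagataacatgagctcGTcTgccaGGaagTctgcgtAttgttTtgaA
Shared run, bases 75 to 140: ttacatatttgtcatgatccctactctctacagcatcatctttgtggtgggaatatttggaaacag
Reads within such runs cannot be assigned to either gene by sequence, and how the authors' counting treated them is not given in the sources used here.

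Across the series, gene counts summed to 19295287 to 21727192 per library and 14609 genes were tested. Whether the libraries stem from different mice is not in the labels, and p-values then measure only the spread between libraries, which may be technical. The targeted genes were checked against the labels. In CPM, read counts scaled by TMM library size, Nr4a1 was at 120.0 ± 68.5 (SD, n = 3) in libraries labelled ApoE-/- and at 71.5 ± 23.4 (SD, n = 4) in libraries labelled as the double knockout, with overlap (edgeR adjusted p = 0.366). Apoe, a knockout in every library by its label, was at 222 ± 34.4 against 28.7 ± 7.52 CPM (edgeR adjusted p = 0.0237). The groups thus also differed in Apoe reads, and this difference cannot be told apart here from the labelled loss of Nur77. Which part of either gene is deleted is not given in the sources used here, and counts over a whole gene can include reads from an altered allele. Directions below are therefore those of the libraries labelled ApoE-/-Nur77-/- (DKO) against the libraries labelled ApoE-/- (ApoE). Defining markers of aorta were high in every library: the 8 smooth muscle markers summed to 8106 to 29401 CPM. Some libraries stood apart. The 8 atrial cardiomyocyte markers summed to 309 CPM in ApoE 2 and 1129 CPM in ApoE 3, against 15.3 to 30.6 CPM elsewhere. The 7 chromaffin and sympathetic markers summed to 735 CPM in ApoE 2 and 897 CPM in DKO 2, against 2.02 to 337 CPM elsewhere.

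By level, the converting enzyme and the prorenin receptor came first and the Mas receptor last. Levels were compared between genes as the deposited FPKM, which are scaled per length. Averaged over the 7 libraries, Ace was at 71.4 FPKM, higher than 96.5% of the 21878 genes, and Atp6ap2 was at 46.2 FPKM. Their ranges overlapped (52.6 to 87.4 and 37.6 to 54.8 FPKM), and both lay above the other 7 genes in every library. Agtrap (8.53 FPKM), Agtr1a (6.39 FPKM), Enpep (6.19 FPKM) and Agt (3.79 FPKM) followed. Each of these overlapped in range with the next in the order, and Agtr1a alone spanned 2.71 to 14.5 FPKM. Agtrap (7.84 to 9.67 FPKM) lay clear of Agt (2.40 to 5.76 FPKM). Agtr1b (1.44 FPKM) and Agtr2 (0.484 FPKM) also overlapped, at 0.257 to 3.18 and 0.0446 to 1.82 FPKM. Mas1 had 8 counts in all 7 libraries together.

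**Figure D1:**
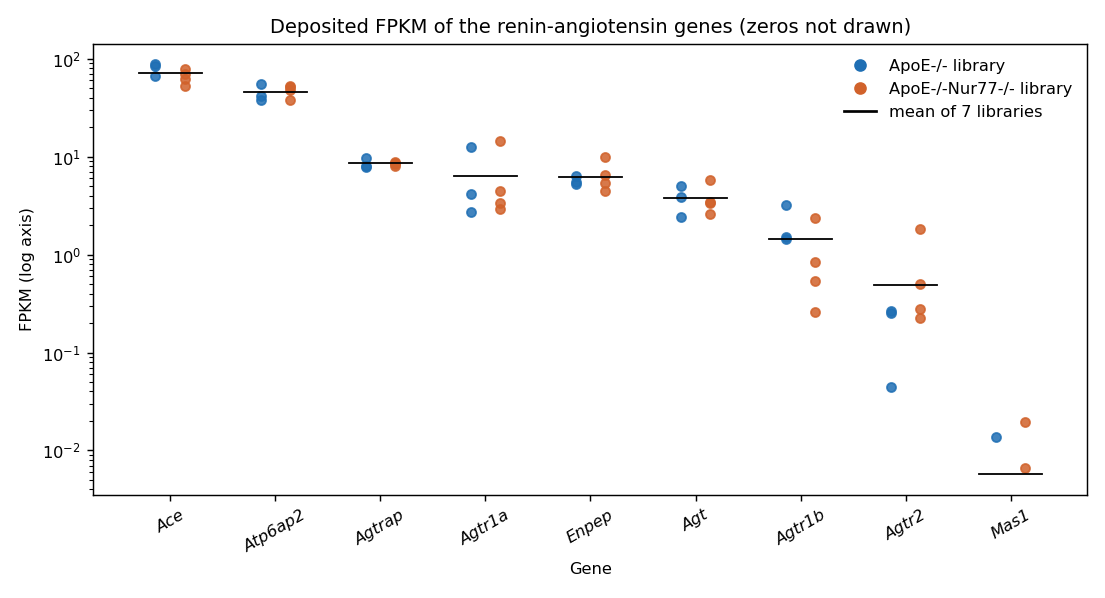
Deposited FPKM of each renin-angiotensin gene (log axis) in the 3 ApoE libraries (blue) and the 4 DKO libraries (orange), with the mean of 7 libraries as a line; values of 0 are not drawn. Ace and Atp6ap2 lie above all other genes shown. Apart from Mas1, which had very few counts, the receptor genes Agtr1a, Agtr1b and Agtr2 are the most spread.

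Between the groups, no renin-angiotensin gene was called. Of the 9 genes, 8 passed the filter on low counts (all but Mas1), and 0 of these had an adjusted p under 0.05 by edgeR's quasi-likelihood test with Benjamini-Hochberg adjustment over all genes, where 0.0274% of the tested genes did. At an unadjusted p under 0.05 the count was also 0 of 8, against 19.7% of all tested genes. DESeq2 called 0, where it called 433 genes higher and 649 lower out of 17824. With quality weights per library, limma voom called 1, Agtr1b, where it called 902 genes higher and 1467 lower out of 14609. The CPM of the groups overlapped for all 8, where 16.3% of tested genes had groups without overlap (9.24% lower in DKO). Fold changes were positive for 3 and negative for 5 (median log2 fold change -0.07, against -0.02 over all tested genes). The design limits what a missing call shows: on simulated counts for this comparison, the test found 0% of the genes set to a 1.5-fold change, 42.5% at 2-fold and 87.5% at 4-fold. The spread within groups differed widely between the genes. The within-group SD of log2 CPM was 1.13 for Agtr1a, 1.11 for Agtr1b and 1.16 for Agtr2, against a median of 0.222 over tested genes. Each of these lay above that of 95% of tested genes. That ranking covered genes of all levels, and low counts, as for Agtr2 (2 to 88) and Agtr1b (10 to 146), widen this SD. For Agtrap the SD was 0.08, lower than for all but 6.51% of tested genes. The simulated shares pool all changed genes, so detection at the spread of Agtr1a, Agtr1b and Agtr2 was not tested.

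**Figure D2:**
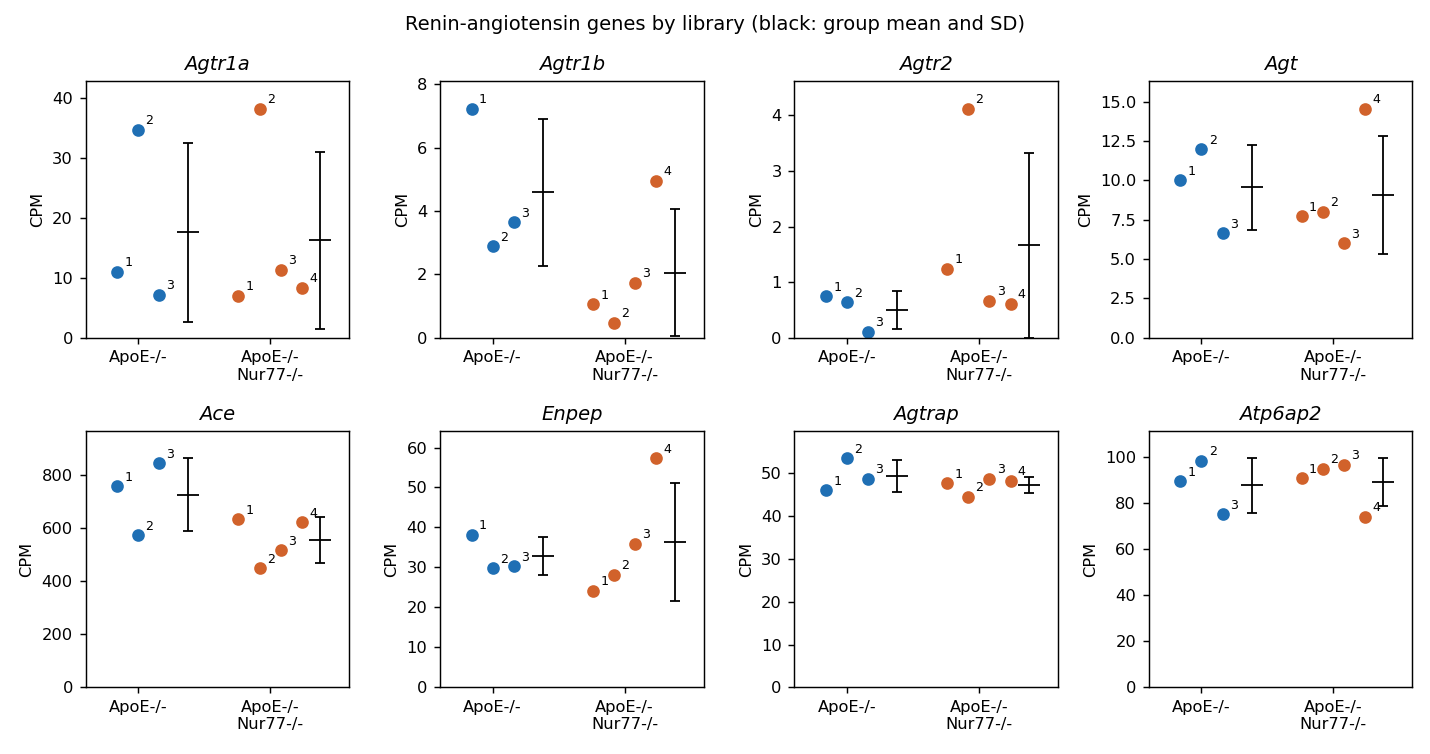
CPM of the 8 tested renin-angiotensin genes in each library (linear axes from 0; numbers are replicate numbers) with the group mean and SD in black, ApoE-/- in blue and ApoE-/-Nur77-/- in orange. All 8 genes overlap between groups, and single libraries such as ApoE 2 and DKO 2 for Agtr1a stand far from the rest of their group.

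Agtr1a, the AT1 receptor gene with the higher FPKM here, was high in a single library of each group. Its level was 11.01, 34.8 and 7.15 CPM in ApoE 1 to ApoE 3 and 6.99, 38.3, 11.4 and 8.33 CPM in DKO 1 to DKO 4. ApoE 2 and DKO 2 thus stood at least 3 times above every other library, and the remaining 5 lay between 6.99 and 11.4 CPM. The group means were 17.6 ± 14.9 CPM (SD, n = 3) and 16.2 ± 14.8 CPM (SD, n = 4), with a log2 fold change of -0.12 (SE 0.76, 95% interval -1.90 to 1.65, edgeR adjusted p = 0.945). Without both of those libraries the log2 fold change was 0.015 (edgeR adjusted p = 0.984), without ApoE 2 alone it was 0.84 and without DKO 2 alone -0.98. With the white adipocyte marker level as a covariate it was -3.16 (SE 1.16, edgeR adjusted p = 0.639), outside that interval. By the summed list, the high libraries were also those with the most chromaffin and sympathetic marker RNA. Dbh, the enzyme that makes noradrenaline, was at 362 CPM in ApoE 2 and 409 CPM in DKO 2, against 0.327 to 156 CPM in the other libraries. Th, the first enzyme of catecholamine synthesis, was at 178 and 222 CPM, against 0.109 to 74.0 CPM. Chga, of the same list, went another way: it was at 31.3 CPM in ApoE 1, above 18.6 CPM in ApoE 2 and near 32.1 CPM in DKO 2. Pnmt, which makes adrenaline, was at 0 to 0.436 CPM in all 7 libraries. Over the 7 libraries the level of Agtr1a and the mean log2 level of that marker list had a Pearson r of 0.80 (Spearman 0.93). This list fell just short of the limit of 0.8 set for naming lists (r = 0.799) and is named after its values were seen. A fit with the level of this list as a covariate, also chosen after seeing the data, put the group difference in Agtr1a at -0.27. Its SE was 0.44, against 0.76 without the covariate, and edgeR did not call it (adjusted p = 0.750). That fit compares the groups, so the part of this list in the Agtr1a levels was not tested. Adrenal cortex markers were near 0: Cyp11b2, the aldosterone synthase, was read in ApoE 1 only, at 0.149 CPM, and the 9 markers summed to 3.77 to 8.04 CPM. In bulk tissue, more cells of a type and more RNA per cell cannot be told apart. Agtr1a also ran against the 8 endothelial markers (r = -0.88, Spearman -0.75), which summed to 1469 CPM in ApoE 2 and 1325 CPM in DKO 2 and to 1569 to 1758 CPM in the others.

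Agtr1b, the AT1 receptor gene with the lower FPKM here, varied in another order. It was at 7.24, 2.90 and 3.65 CPM in ApoE 1 to ApoE 3 and at 1.05, 0.469, 1.73 and 4.96 CPM in DKO 1 to DKO 4. The 3 lowest libraries were DKO 1 to DKO 3, while DKO 4 lay above ApoE 2 and ApoE 3, so the groups overlapped. The means were 4.597 ± 2.32 CPM (SD, n = 3) and 2.05 ± 2.01 CPM (SD, n = 4), and the log2 fold change was -1.16 (SE 0.75, 95% interval -2.92 to 0.59, edgeR adjusted p = 0.418). limma voom, which down-weights libraries that deviate, gave -1.97 with an adjusted p of 0.0477. It put the smallest of its quality weights (0.406) on DKO 4 and the largest on DKO 3 (2.81) and ApoE 1 (2.43). ApoE 1 was the library with the most Agtr1b, and ApoE 2 and ApoE 3 had weights of 0.675 and 0.673. Without DKO 4 edgeR gave -2.08 (adjusted p = 0.0765), without ApoE 1 -0.67 (adjusted p = 0.765), and with the white adipocyte marker level as a covariate the sign turned (1.52, adjusted p = 0.680). The 9 white adipocyte markers summed to 8488 to 11350 CPM in ApoE and 4122 to 6697 CPM in DKO libraries, so this level and the group cannot be told apart. Agtr1b had a Pearson r of 0.80 with that list (Spearman 0.79) and of 0.88 with the 7 pericyte markers (Spearman 0.82), over 7 libraries. With the 8 smooth muscle markers its Pearson r was 0.77, below the limit of 0.8 for naming lists, but its Spearman was higher, at 0.93. The pericyte markers summed to 1143 to 1485 CPM in ApoE and 1207 to 1758 CPM in DKO libraries. Among them, Cspg4 was at 501 ± 86.7 CPM (SD, n = 3) and 490.2 ± 204 CPM (SD, n = 4), and Pdgfrb at 404 ± 107 and 522 ± 61.3 CPM. Of the 7 markers 5 had negative fold changes: Kcnj8 (-0.64), Higd1b (-0.47), Vtn (-0.38), Abcc9 (-0.11) and Cspg4 (-0.03). The other 2, Pdgfrb (0.37) and Notch3 (0.22), had positive ones, and 0 of the 7 passed (lowest edgeR adjusted p = 0.200). The part of these lists in the Agtr1b level was not tested.

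The balance between the AT1 receptor genes differed between libraries, also within each group. Agtr1b gave 39.7% of the AT1 receptor counts in ApoE 1 (95% exact binomial interval 34.6 to 44.9%), 7.69% in ApoE 2 (5.96 to 9.73%) and 33.8% in ApoE 3 (27.3 to 40.9%). It gave 13.1% in DKO 1 (8.39 to 19.2%), 1.21% in DKO 2 (0.582 to 2.22%), 13.2% in DKO 3 (9.57 to 17.6%) and 37.3% in DKO 4 (31.4 to 43.5%). The shares of the groups overlapped, and the lowest in each group was the library with the most Agtr1a. Per length, Agtr1a exceeded Agtr1b in all 7 libraries, by 1.31-fold in ApoE 1 to 56.7-fold in DKO 2. The summed AT1 receptor level was 22.2 ± 13.9 CPM (SD, n = 3) in ApoE and 18.3 ± 13.8 CPM (SD, n = 4) in DKO. These intervals cover counting error only, since reads copied from the same molecule are not independent.

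**Figure D3:**
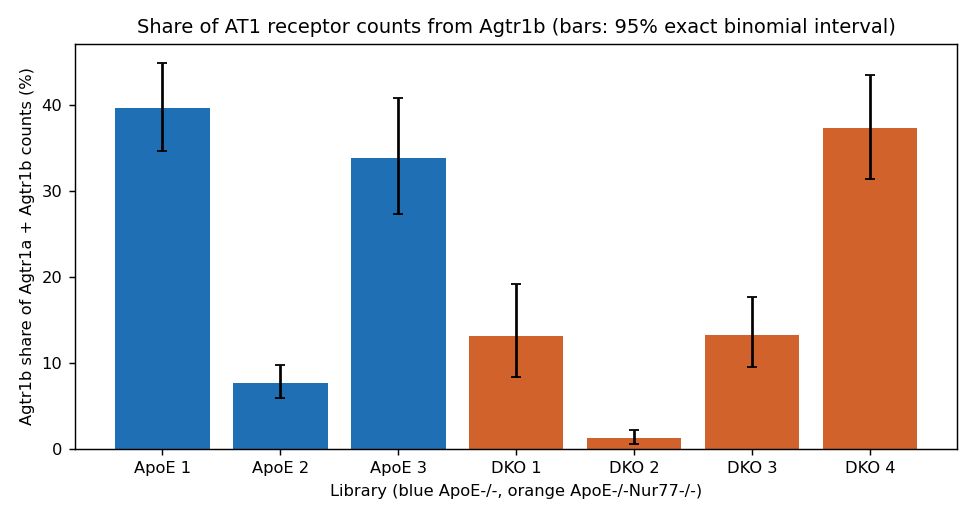
Share of Agtr1b in the summed Agtr1a and Agtr1b counts of each library (percent; bars are 95% exact binomial intervals, blue ApoE-/- and orange ApoE-/-Nur77-/-). ApoE 1, ApoE 3 and DKO 4 lie between 33.8% and 39.7%, and DKO 2 lies at 1.21%.

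The promoter of Agtr1b is shown because this gene had the largest drop among the tested renin-angiotensin genes, and because Nur77 is a DNA-binding factor. It covers 250 bases before to 50 after the RefSeq start, chr3:20367128-20367427 on the minus strand of GRCm38.p6, 5′ to 3′, with a TATA box (TATAAA, starting 31 bases before the start) in capitals.
Agtr1b promoter: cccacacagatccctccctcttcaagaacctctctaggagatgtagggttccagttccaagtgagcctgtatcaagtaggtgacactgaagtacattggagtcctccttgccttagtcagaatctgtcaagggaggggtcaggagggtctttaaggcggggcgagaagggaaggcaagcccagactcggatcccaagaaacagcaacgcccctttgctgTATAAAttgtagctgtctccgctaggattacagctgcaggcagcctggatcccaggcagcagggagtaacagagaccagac
RefSeq promoters were given for 8 of the 9 genes, 9 promoters in all since Ace has 2 starts, and the gene counts do not separate those starts. Agtr1a had no entry. Both strands were searched for AAAGGTCA, the site that Nur77 binds as a monomer, and none of the 9 promoters held it, where 1.51% of 32851 promoters do. TATAAA was found in either direction in the promoters of Agtr1b, Agt, Ace and Enpep, where 13.6% of all promoters hold it. In Agt it starts 30 bases before the start, in the direction of transcription. A match is a match of letters only.

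The receptors known to oppose AT1 were scarce. Agtr2 (chromosome X, 21484624 to 21488833), which is prominent in fetal tissue and is re-expressed in injured vessels, was at 0.744, 0.644 and 0.109 CPM in ApoE 1 to ApoE 3 and at 1.24, 4.13, 0.666 and 0.614 CPM in DKO 1 to DKO 4. DKO 2 was the highest and ApoE 3, with 2 counts, the lowest, and the groups overlapped. The means were 0.499 ± 0.341 CPM (SD, n = 3) and 1.66 ± 1.67 CPM (SD, n = 4), with a log2 fold change of 1.71 (SE 0.90, 95% interval -0.38 to 3.81, edgeR adjusted p = 0.332). Without DKO 2 the log2 fold change was 0.76 (edgeR adjusted p = 0.566), and with the white adipocyte level as a covariate it turned to -1.18. Mas1 (chromosome 17, 12838841 to 12868150), the receptor for angiotensin 1-7, had 0, 1 and 2 counts in the ApoE libraries and 1, 0, 0 and 4 counts in the DKO libraries. A count of 0 allows up to 0.133 to 0.164 CPM at this depth, so a difference in Mas1 was not detectable.

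The substrate Agt (chromosome 8, 124556587 to 124569706), made mostly by liver and also by perivascular fat, was at 10.02, 11.997 and 6.65 CPM in ApoE 1 to ApoE 3 and at 7.71, 8.02, 5.99 and 14.6 CPM in DKO 1 to DKO 4. The highest and the lowest library were both DKO. Its log2 fold change was -0.08 (SE 0.34, 95% interval -0.87 to 0.72, edgeR adjusted p = 0.924). Of the 6 hepatocyte markers, Ahsg was at 3.47 to 13.4 CPM and Alb, the gene of albumin, at 0.144 to 5.24 CPM, and the list summed to 13.2 to 13.96 CPM in ApoE and 4.36 to 16.03 CPM in DKO libraries. Their part in the Agt level was not tested. The 9 white adipocyte markers all had lower group means in DKO, 9 of 9 at an unadjusted p under 0.05, where 19.7% of all tested genes passed in either direction, and 0 at an adjusted p under 0.05. Ren1, the gene of renin itself, was at 5.01, 1.84 and 2.24 CPM in ApoE and at 1.92, 1.59, 1.78 and 6.85 CPM in DKO libraries, with a log2 fold change of 0.00073 (SE 0.64, edgeR adjusted p = 0.999). ApoE 1 and DKO 4, the libraries with the most Ren1, were also those with the most Agtr1b and the most Enpep. Over the 7 libraries Ren1 had a Pearson r of 0.76 with Agtr1b (Spearman 0.86) and of 0.85 with Enpep (Spearman 0.64).

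Ace (chromosome 11, 105967948 to 105989964), the enzyme that makes Ang II, was the abundant member of the system. It was at 758, 575 and 845 CPM in ApoE 1 to ApoE 3 and at 634.5, 449.8, 518 and 623 CPM in DKO 1 to DKO 4. The highest levels were those of ApoE 3 and ApoE 1, and ApoE 2 lay below DKO 1 and DKO 4. The means were 726 ± 138 CPM (SD, n = 3) and 556 ± 88.2 CPM (SD, n = 4), with a log2 fold change of -0.38 (SE 0.18, 95% interval -0.81 to 0.04). The edgeR adjusted p was 0.290, and the estimate lay between -0.53 and -0.26 when each library was left out in turn. Ace is an endothelial enzyme, and its level followed the 8 endothelial markers (r = 0.88, Spearman 0.89). These summed to 1469 to 1758 CPM in ApoE and 1325 to 1737 CPM in DKO libraries, with Pecam1 at 435 ± 56.3 CPM (SD, n = 3) and 393 ± 54.0 CPM (SD, n = 4) and Vwf at 405 ± 7.93 and 333 ± 58.0 CPM. Of the 8 endothelial markers 6 had negative fold changes and 2, Cdh5 (0.32) and Kdr (0.18), positive ones, and 0 passed (lowest edgeR adjusted p = 0.318). Its level followed the 6 brown adipocyte markers (r = 0.93, Spearman 0.86) and the white adipocyte markers (r = 0.86, Spearman 0.86) as closely. The brown adipocyte markers summed to 602 to 1858 CPM in ApoE and 207 to 547 CPM in DKO libraries, with Ucp1, the uncoupling protein, at 502 ± 279 CPM (SD, n = 3) and 158 ± 84.4 CPM (SD, n = 4). With the white adipocyte level as a covariate the log2 fold change of Ace was 0.38 (edgeR adjusted p = 0.706). The part of these lists in the Ace level was not tested. Of the kidney markers only Aqp2 was tested (r = 0.84 with Ace), at 7.94 ± 1.86 and 2.96 ± 1.54 CPM. Umod, a defining kidney tubule gene, had no count in any library.

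Enpep (chromosome 3, 129269177 to 129332749), which removes the first residue of Ang II, was at 38.2, 29.9 and 30.4 CPM in ApoE 1 to ApoE 3 and at 24.2, 28.2, 36.0 and 57.3 CPM in DKO 1 to DKO 4. The DKO libraries held both the lowest and the highest value. The log2 fold change was 0.15 (SE 0.29, 95% interval -0.54 to 0.84, edgeR adjusted p = 0.820), and without DKO 4 it was -0.16. With the white adipocyte level as a covariate it was 1.15 (SE 0.49, edgeR adjusted p = 0.639), and with the smooth muscle level 0.32 (SE 0.10, edgeR adjusted p = 0.197). Enpep followed the 8 smooth muscle markers (r = 0.88, Spearman 0.89), which summed to 23877, 15399 and 20272 CPM in ApoE 1 to ApoE 3 and to 8106, 13479, 14711 and 29401 CPM in DKO 1 to DKO 4. Acta2, smooth muscle actin, was at 7805 ± 1557 CPM (SD, n = 3) and 6581 ± 3702 CPM (SD, n = 4), and Tagln at 5070 ± 1293 and 3870 ± 2169 CPM. DKO 4 was highest and DKO 1 lowest in both Enpep and the smooth muscle list.

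**Figure D4:**
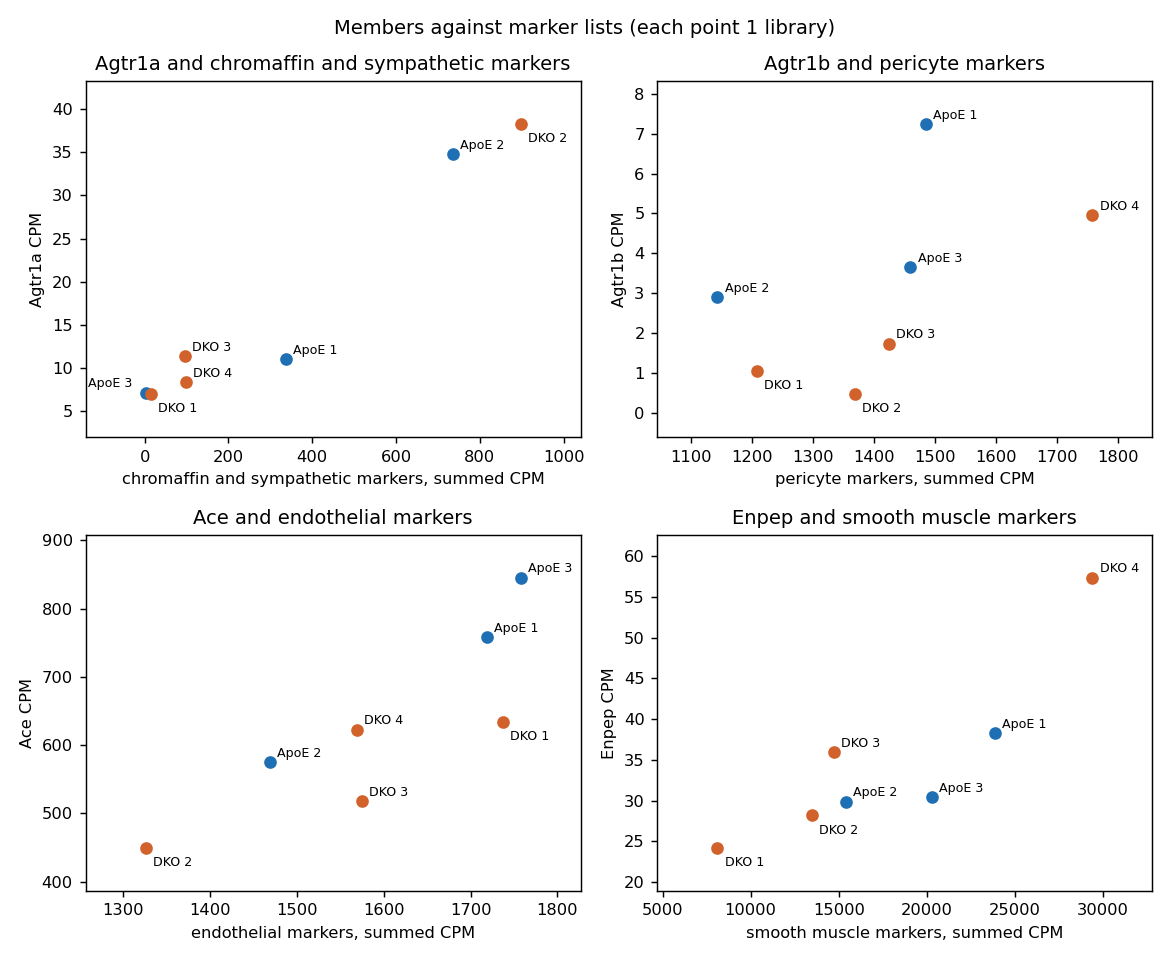
CPM of 4 renin-angiotensin genes against the summed CPM of a marker list, 1 point per library (blue ApoE-/-, orange ApoE-/-Nur77-/-; linear axes that do not all start at 0). ApoE 2 and DKO 2 are high in both Agtr1a and chromaffin and sympathetic markers, and DKO 4 is highest in both Enpep and smooth muscle markers.

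Agtrap and the prorenin receptor Atp6ap2 had the smallest within-group spread of the 8 tested genes, with an SD of log2 CPM of 0.08 and 0.19. Agtrap (chromosome 4, 148077061 to 148088064) was at 46.0, 53.5 and 48.7 CPM in ApoE 1 to ApoE 3 and at 47.7, 44.5, 48.7 and 48.2 CPM in DKO 1 to DKO 4. All 7 libraries lay within 1.20-fold of each other. The log2 fold change came to -0.06 (SE 0.08, edgeR adjusted p = 0.712), and its 95% interval of -0.26 to 0.13 bounds the difference closely. Atp6ap2 (chromosome X, 12587759 to 12617051) was at 89.4, 98.5 and 75.2 CPM in ApoE 1 to ApoE 3 and at 90.7, 94.98, 96.7 and 74.0 CPM in DKO 1 to DKO 4. ApoE 3 and DKO 4 were the lowest. The log2 fold change was 0.02 (SE 0.13, 95% interval -0.28 to 0.33, edgeR adjusted p = 0.939). With the white adipocyte level as a covariate it turned to -0.59 (SE 0.18, edgeR adjusted p = 0.639), outside that interval.

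Atp6ap2 was set beside 15 other subunits of the vacuolar proton pump, all of them tested. At an adjusted p under 0.05 by edgeR 0 of 15 passed, and at an unadjusted p under 0.05 there were 4 lower and 0 higher (26.7%, against 19.7% of all tested genes). Fold changes were negative for 12 and positive for 3 (median -0.10), or 80.0% negative against 52.6% over all tested genes. The smallest p-values belonged to Atp6v0d1 (means of 124 ± 6.58 and 102 ± 6.01 CPM; log2 fold change of -0.27 with an SE of 0.08, edgeR adjusted p = 0.168), Atp6v1e1 (log2 fold change -0.25, edgeR adjusted p = 0.195) and Atp6v0b (log2 fold change -0.20, edgeR adjusted p = 0.226). Atp6v1b2, chosen after its values were seen, was highest in the libraries that were high in Agtr1a, at 286 CPM in ApoE 2 and 300.2 CPM in DKO 2 against 119 to 201 CPM elsewhere.

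Of 22 further genes of the angiotensin, kinin and aldosterone pathways, 19 were tested and 0 passed an adjusted p of 0.05 by edgeR. Ctsg, Mrgprd and Cyp11b2 fell under the count filter. Fold changes were positive for 10 and negative for 9 (median 0.00073), and at an unadjusted p under 0.05 there were 2 lower and 0 higher. That is 10.5%, below the 19.7% of all tested genes. Those were Mme and Mcpt4. Mme, or neprilysin, which cuts angiotensin I to angiotensin 1-7 and degrades bradykinin, was at 22.4, 24.7 and 31.8 CPM in ApoE 1 to ApoE 3 and at 22.4, 14.1, 15.85 and 15.95 CPM in DKO 1 to DKO 4 (log2 fold change of -0.62 with SE 0.19, edgeR adjusted p = 0.168). The DKO libraries lay below the ApoE libraries, by a margin of under 0.1 CPM between DKO 1 and ApoE 1. Mme was the only 1 of the 19 without overlap (5.26%, against 16.3% of all tested genes). Mcpt4, a mast cell chymase that can form Ang II without Ace, was at 16.1 ± 3.50 CPM (SD, n = 3) and 9.08 ± 3.33 CPM (SD, n = 4), a log2 fold change of -0.83 with SE 0.29 (edgeR adjusted p = 0.190). Cma1, another mast cell chymase, was at 10.2 ± 4.63 and 7.12 ± 3.54 CPM (log2 fold change of -0.52 with SE 0.42, edgeR adjusted p = 0.524). Of the 4 tested mast cell markers, 3 had negative fold changes like both chymases, namely Tpsb2 (-0.78), Hdc (-0.50) and Cpa3 (-0.44), and Kit had a positive one (0.72). None of the 4 passed (edgeR adjusted p of 0.225 to 0.575). The summed level of the list, 47.5 to 57.0 CPM in ApoE and 41.3 to 61.8 CPM in DKO libraries, was carried in part by Kit, at 46.6 CPM in DKO 1. The part of these markers in the chymase levels was not tested. Kng1, a kininogen gene whose product yields the Ace substrate bradykinin, was at 0.856 ± 0.576 CPM (SD, n = 3) and 2.75 ± 1.52 CPM (SD, n = 4), a log2 fold change of 1.67 with SE 0.72 (edgeR adjusted p = 0.254). Kng1 has a close relative, Kng2, so its counts are uncertain.

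**Figure D5:**
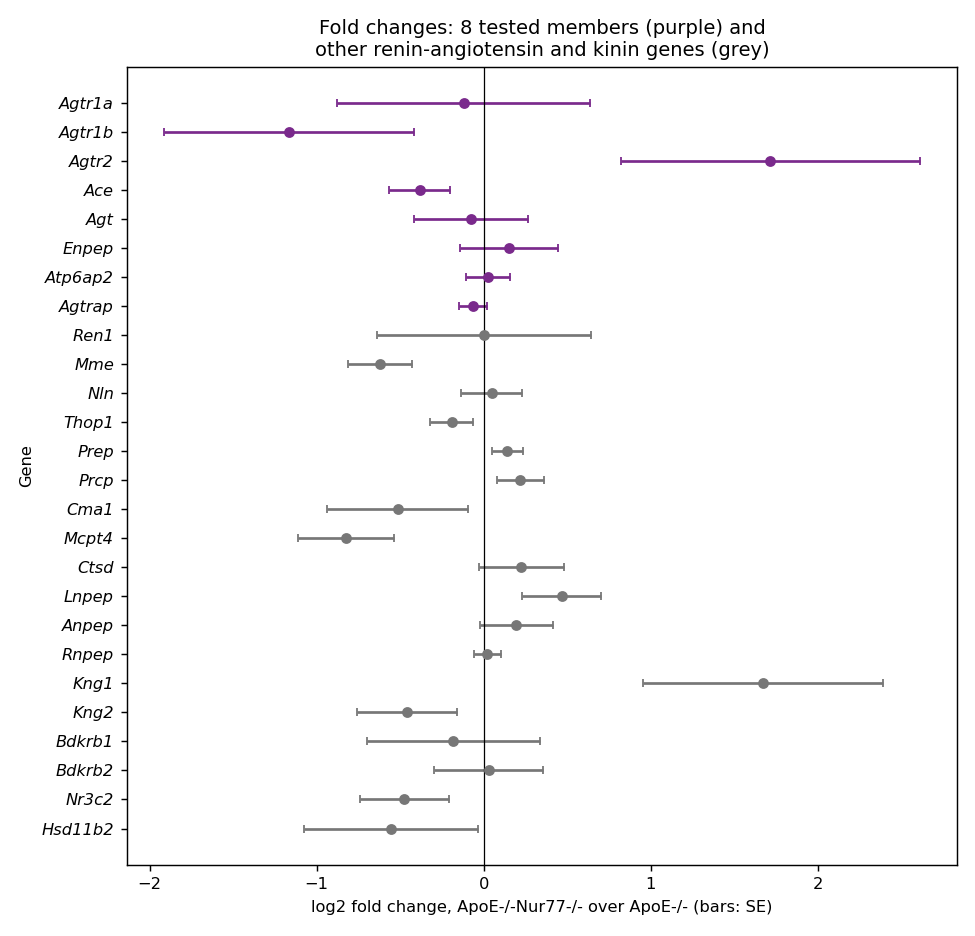
log2 fold change of the 8 tested renin-angiotensin genes (purple) and further pathway genes (grey), ApoE-/-Nur77-/- over ApoE-/-, with bars for the SE. Agtr1b and Agtr2 have the largest estimates of the 8, at -1.16 and 1.71, and the widest bars with Agtr1a.

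Genes that carry the AT1 signal inside the cell were tested in full. Of 25 G protein, phospholipase, kinase, arrestin and RGS genes, 0 passed an adjusted p of 0.05 by edgeR, 1 was higher and 0 lower at an unadjusted p under 0.05 (4.0%, against 19.7% of all tested genes), and 16 had positive and 9 negative fold changes (median 0.05). The one with the smallest p was Prkcd, a protein kinase C isoform, at 123, 110.3 and 114 CPM in ApoE 1 to ApoE 3 and at 127, 131, 149 and 155 CPM in DKO 1 to DKO 4. Its DKO libraries all lay above the ApoE libraries, a lack of overlap seen in 16.3% of all tested genes (log2 fold change of 0.28 with SE 0.10, edgeR adjusted p = 0.205). Rgs2, which shuts off the G protein of the AT1 receptor, was at 83.9 ± 19.4 CPM (SD, n = 3) and 60.4 ± 13.3 CPM (SD, n = 4), a log2 fold change of -0.47 with SE 0.22 (edgeR adjusted p = 0.284). Prkce was at 25.8 ± 5.12 and 18.5 ± 5.82 CPM (log2 fold change -0.48, edgeR adjusted p = 0.342).

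Pairs of renin-angiotensin genes had modest correlations across the 7 libraries. Of the pairs among the 8 tested genes, the largest Pearson r in size was -0.79, between Agtr2 and Ace (Spearman -0.46), followed by 0.74 between Agtr1b and Ace (Spearman 0.64) and -0.72 between Agtr1b and Agtr2 (Spearman -0.61). Libraries share depth scaling and tissue makeup, so these values describe 7 points only. The genes whose log2 CPM ran most like each one, out of 13025 or 13026 candidates with a mean log2 CPM of at least 1, were mostly far from this pathway. For Agtr1a these were Arhgef4 (r = 0.99), Adgrl3 (r = 0.99) and Trim2 (r = 0.99), and Adgrl3 was at 9.61 CPM in ApoE 2 and 9.38 CPM in DKO 2 against 1.15 to 2.98 CPM elsewhere. For Agtr1b they were Arid5a, Tmem38b and Ddx26b (r = 0.98 to 0.99), and for Agtr2 Serf1, Cfdp1 and Dync1li1 (r = 0.97). For Ace they were Ackr3 (r = 0.99), Osbpl9 and Ppp2r5a (r = 0.98). Ackr3, a scavenging chemokine receptor, was at 84.0, 68.2 and 98.9 CPM in ApoE and at 71.4, 50.6, 61.2 and 67.4 CPM in DKO libraries. For Agt they were Gm34220 (r = 0.96) and Marchf8 (r = 0.93), and for Enpep Gli2, Fam81a and Grip2 (r = 0.98 to 0.99). For Atp6ap2 they were Ttc1, Zfp97 and Cxcl10 (r = 0.97 to 0.98), and for Agtrap Trim12a, Atg14 and Lgals3bp (r = 0.94 to 0.98).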

How the data were processed

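Polyadenylated RNA of abdominal aorta was sequenced from TruSeq Stranded mRNA libraries, per the labels' protocols. Trimmomatic, HISAT2, HTSeq, Cufflinks and DESeq and the build GRCm38.p6 are named, without versions or roles, per the submitters' processing notes. For annotation, filters and strand setting, the sources used here give nothing. The deposited gene counts were whole numbers, not normalised, and the deposited FPKM values were scaled by the authors for length and depth. Each column name carries the group and number of its sample.

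Of 21878 genes, 4054 had no count and 14609 passed edgeR's filterByExpr (minimum count 10). Counts were TMM-normalised and tested with edgeR's robust quasi-likelihood test (edgeR 4.0.16, limma 3.58.1, DESeq2 1.42.0, R 4.3.3) on 3 ApoE and 4 DKO libraries, adjusted by Benjamini-Hochberg (threshold 0.05). SE is |log2 fold change| divided by √F, and 95% intervals use the fit's degrees of freedom. Log2 CPM used a prior count of 2. Symbols turned into dates (27) were restored by gene identifier. No library repeated another: chi-square per gene was at least 35.2 for each pair. Simulated counts with 200 changed genes served to check it.

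Members and lists were chosen with earlier results of these data known. Named were the 9 members, Nr4a1 and Apoe, Ren1, Mme and Cma1, the 3 genes of each pathway list with the smallest p where none passed, the 3 genes most like each tested member, and marker lists with an absolute r of at least 0.8 with up to 2 of their genes. The chromaffin and sympathetic list, Atp6v1b2, Ahsg, Alb and the single mast cell, pericyte and endothelial markers beyond the rule were named after their values were seen. A few genes that the rule named are not reported here. Alternatives were other size factors, tests, count filters, FPKM fits, a replicate block, each library left out and marker levels as covariates. RefSeq promoters (GRCm38.p6) and GENCODE M21 transcripts gave the sequences.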

Additional observations from a re-analysis of the deposited data

Results flagged for a closer look

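Among 15 genes checked in the 4 DKO libraries, a single library stood far from the other 3 in 3 cases. Chance would flag about 1 in 20 such groups if values were independent and normally distributed. The genes share the same 4 libraries, so the 3 cases cannot be read against that rate. Agtr1a was at 38.3 CPM in DKO 2, against 6.99 to 11.4 CPM in the other DKO libraries. Ren1 was at 6.85 CPM in DKO 4, against 1.59 to 1.92 CPM. Cma1 was at 12.4 CPM in DKO 4, against 5.03 to 5.59 CPM. The ApoE group, with 3 libraries, was not checked in this way, although ApoE 2 (Agtr1a, 34.8 CPM) and ApoE 1 (Ren1, 5.01 CPM) were the high libraries of that group. The causes were not tested.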

How the results depend on the processing

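All-gene counts moved with the tool. Against 4 lower and 0 higher, DESeq2 called 649 lower and 433 higher, and voom 1467 lower and 902 higher. FPKM fits with a mean of at least 1 called 1 higher at either pseudocount, and the unfiltered FPKM fit called 0 lower. The replicate block called 0 lower, the white adipocyte covariate 0 lower, the smooth muscle covariate 2 lower and 1 higher, and, both chosen after seeing the data, the removal of ApoE 2 with DKO 2 called 0 lower and the chromaffin and sympathetic covariate 24 lower and 1 higher. Leaving out each library gave 0 to 2 lower and 0 to 4 higher. The causes were not tested.

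Of 157 values of the tested renin-angiotensin genes under 20 alternatives, 127 kept their direction and side of the threshold, 29 turned in sign with none of these called, and 1 became called, Agtr1b with voom (-1.97, adjusted p = 0.0477), so the count of called members was 1 there and 0 under the other 19. Signs turned for Enpep with voom (-0.076), and with the replicate block for Agtr1a (0.054) and Enpep (-0.17). They turned for Agt (0.0063, and 0.010 at a pseudocount of 0.1) and Agtrap (0.0038, and 0.0046) in the FPKM fits. The white adipocyte covariate turned Agtr1b (1.52), Agtr2 (-1.18), Ace (0.38), Agt (0.34) and Atp6ap2 (-0.59), the smooth muscle covariate Agt (0.013) and Atp6ap2 (-0.044), and the removal of ApoE 2 with DKO 2 Agtr1a (0.015), Agt (0.22) and Agtrap (0.071). With each library left out, Agtr1a ranged from -0.98 to 0.84, Agt from -0.40 to 0.12, Enpep from -0.16 to 0.32 and Atp6ap2 from -0.077 to 0.12. Mas1 was too low for the filter, as was Agtr2 at a minimum count of 50 and in the filtered FPKM fits.

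Same-numbered libraries deviated from their group means with r of -0.39, 0.70 and 0.0036, and 1 of 3 ApoE libraries correlated best with its own number. So few libraries cannot show whether the replicate numbers pair them. Depth limits Mas1 and Agtr2, whose counts are few.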
